A study of Mus musculus with 28 samples.

Results

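The genes of cholesterol and fatty acid synthesis were followed in murine bone marrow-derived macrophages (BMDMs). They are 28 genes of the 54532 in the count table and were listed by what they encode. Of these, 7 act in the mevalonate steps, 3 form squalene and lanosterol, 8 convert lanosterol to cholesterol, 6 build fatty acids, and 4 regulate the pathway or carry sterol within the cell. The study asked how von Willebrand factor (VWF), the plasma glycoprotein that tethers platelets and carries factor VIII, acts on macrophages, with bacterial lipopolysaccharide (LPS), the ligand of Toll-like receptor 4, for comparison. BMDMs were grown for 7 days from marrow of C57/B6JB mice aged 8 to 12 weeks with macrophage colony-stimulating factor (M-CSF), plated overnight and then given fresh medium with 1 mM CaCl2, which all groups share. This age is the one given for the marrow, and the study's methods state a younger range for its murine experiments in general. The 6 groups were a PBS control (n = 5 cultures), human plasma-derived VWF at 10 µg/ml (n = 5) and LPS at 100 ng/ml (n = 4), each for 3.5 h and, in other cultures, for 16 h. The VWF was a human protein given to mouse cells, and no mouse genotype other than the strain is named. The labels call the cultures biological replicates without naming the mouse behind each, so p-values measure the spread between these cultures.

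Cells build cholesterol from acetyl-CoA by way of mevalonate, isoprenoid units, squalene and lanosterol, and build fatty acids from the same acetyl-CoA through acetyl-CoA carboxylase and fatty acid synthase. Genes of both routes are driven by the sterol regulatory element-binding proteins (SREBPs), the transcription factors encoded by Srebf1 and Srebf2. SREBPs are carried by SCAP from the endoplasmic reticulum to be cleaved and activated when sterols are scarce, and INSIG proteins hold them back when sterols are plentiful. In macrophages, activation through Toll-like receptors is known to induce Ch25h, whose product 25-hydroxycholesterol holds SREBPs back, while liver X receptors (LXRs) sense oxysterols and turn on efflux genes such as Abca1.

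Expression is given as CPM when cultures are compared, a read count relative to the total of its culture after scaling by TMM factors. It is given as TPM when genes are compared, which divides by exon length as well. Genes were tested in a comparison if they stood at 10 TPM or more in any culture of it. A gene was called when edgeR's quasi-likelihood test gave a Benjamini-Hochberg adjusted p under 0.05 over all genes tested and an absolute log2 fold change over 1, a change of more than 2-fold. In each of the 9 comparisons 19 to 22 of the 28 genes passed the 10 TPM filter, and all 28 passed edgeR's filter on counts, so the fit after that count filter is given for the genes left out. Total counts per culture lay between 41131209 and 77699206. TMM factors were 0.729 to 0.845 in LPS-treated cultures and 0.944 to 1.19 in the others. If library size alone were the scale, the all-gene median log2 fold change would stand at -0.554 for LPS and -0.224 for VWF against control at 3.5 h, at -0.589 and -0.086 at 16 h, and at 0.316 and 0.458 for VWF against LPS at the 2 times, so every change below is relative to the bulk of genes. That scaling also tilts the calls over all genes, from 746 higher and 458 lower to 608 and 652 with VWF at 3.5 h, and from 1047 and 963 to 704 and 2213 with LPS. At 16 h the calls with LPS go from 1221 and 989 to 782 and 2319. For VWF against LPS they go from 353 and 503 to 772 and 334 at 3.5 h and from 837 and 1095 to 1772 and 687 at 16 h. In bulk RNA, fewer cells of a type and less RNA per cell cannot be told apart.

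The defining markers of macrophages were present in every group: Adgre1, Csf1r, Cd68, Itgam, Lyz2 and Mertk summed to between 4365 and 49088 TPM per culture and none was at 0. The summed level of 3 fibroblast markers reached 136 TPM and that of 5 neutrophil markers 20.1 TPM, and the lists for T cells, B cells, mast cells and erythroid cells stayed at or under 0.782 TPM. When the data were inspected, 3 cultures at 16 h stood apart, and leaving them out was chosen after seeing the data. Control replicate 5, LPS replicate 4 and, to a lesser degree, VWF replicate 4 differed from the median of their group by over 1 log2 unit in 22.6%, 11.5% and 2.85% of 8867 genes, against 0.18% to 2.58% in the remaining cultures. Their macrophage markers summed to 6385, 4365 and 27294 TPM, the lowest of each 16 h group, whose other cultures held 28162 to 34683, 9496 to 13059 and 41987 to 49088 TPM. In these 3 cultures the fifth of genes with the shortest transcripts had a median deviation from the group median of 0.496, 0.373 and 0.313 log2 units, and the fifth with the longest one of -0.228, -0.267 and -0.177. Shifts with transcript length were not peculiar to them. At 3.5 h control replicate 4 and VWF replicate 5 shifted the opposite way, with -0.388 and -0.336 for the shortest transcripts and 0.301 and 0.263 for the longest. VWF replicate 4 of 16 h had a median absolute deviation from its group median of 0.219 log2 units. Control replicate 4 of 3.5 h, which was kept, had 0.231. VWF replicate 4 was the lowest VWF culture of 16 h for Acat2, Sqle, Scd2, Insig1 and Stard4, and the highest for Mvd and Mvk. Leaving it out raises the VWF mean of the former genes and lowers that of the latter. The part that the difference of the 3 cultures had in the results was not tested. Results at 16 h are also given without them where that changes which side of the test they fall on.

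**Figure D1:**
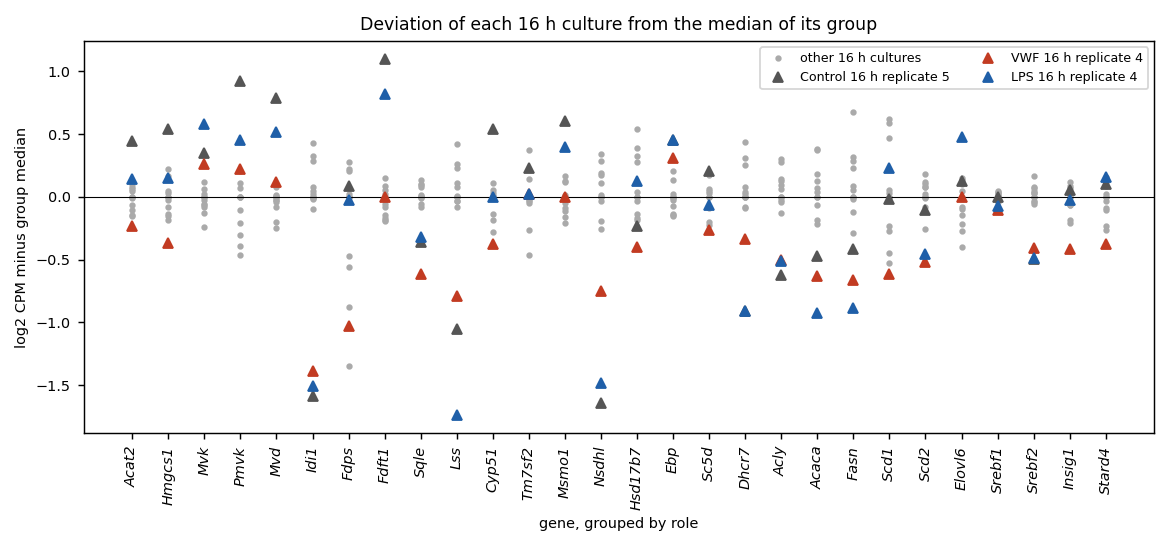
Log2 CPM of each of the 28 genes in each 16 h culture, minus the median of its group, with genes along the x axis in order of role. Triangles are the 3 cultures that stood apart (grey control, red VWF, blue LPS) and grey points the other 16 h cultures. Idi1 lay between -1.59 and -1.39 log2 units in all 3 triangles, and Nsdhl and Lss lay below 0 in them as well.

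Among the 28 genes these 3 cultures shared deviations in many places. Idi1 deviated from its group median by -1.59 log2 units in control replicate 5, -1.51 in LPS replicate 4 and -1.39 in VWF replicate 4. Nsdhl deviated by -1.65, -1.49 and -0.749, and Lss by -1.05, -1.74 and -0.792. Fdft1 ran the other way in control replicate 5 and LPS replicate 4, at 1.10 and 0.816, and sat at the group median in VWF replicate 4. All 3 were also low for Dhcr7 (-0.91, -0.91 and -0.34), Fasn (-0.41, -0.88 and -0.66), Acaca, Acly, Srebf2, Sqle and Scd2, and all 3 high for Pmvk (0.93, 0.45 and 0.22), Mvd (0.79, 0.51 and 0.12), Mvk and Ebp.

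Promoter windows of RefSeq (build GRCm38.p6, from 250 bases before a start site to 50 after it) covered 22 of the 28 genes in 27 windows. Fdps, Fdft1, Sqle, Scd1, Scd2 and Stard4 had no entry. The windows were searched on both strands for TCACNCCA, the core of the sterol regulatory element to which SREBPs bind, for CCAAT, the box of the cofactor NF-Y, and for GGGCGG, the box of Sp1. TCACNCCA was found in 3 of the 22 genes, Hmgcs1, Srebf2 and Msmo1, and in 4.97% of all 27025 genes with a window. The longer TCACNCCAC, which contains it, was found in Hmgcs1 only among the 22, and in 1.44% of all genes with a window. CCAAT was found in 20 of the 27 windows against 37.4% of the 32851 windows of all genes, and GGGCGG in 20 of the 27 against 35.7%. Stretches upstream of the RefSeq start site are shown for the 3 genes that hold the core. They are also shown for Mvd, Dhcr7 and Fasn, which were called lower with LPS at 3.5 h and hold none. Of the 3 genes with the core, Msmo1 was called lower there as well, and Hmgcs1 and Srebf2 were not called. All are written 5′ to 3′ on the gene's own strand with matches to TCACNCCA, CCAAT and GGGCGG, or their reverse complements, in capitals. Hmgcs1 (chr13:119690151-119690350, plus strand), Srebf2 (chr15:82147069-82147180, plus), Mvd (chr8:122443423-122443622, minus), Dhcr7 (chr7:143822967-143823144, plus) and Fasn (chr11:120824548-120824747, minus) are shown from 200 bases before the RefSeq start site to that site, or to the first base that GENCODE assigns to an exon, and Msmo1 (chr8:64733737-64733766, minus) as the 30 bases around its core. The Msmo1 gene of GENCODE starts 214 bases before this RefSeq start site, so its core lies inside the GENCODE gene.
Hmgcs1: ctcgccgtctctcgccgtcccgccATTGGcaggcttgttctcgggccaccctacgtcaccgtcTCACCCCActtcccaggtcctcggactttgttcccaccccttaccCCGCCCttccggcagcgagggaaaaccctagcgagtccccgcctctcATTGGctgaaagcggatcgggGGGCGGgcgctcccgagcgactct
Srebf2: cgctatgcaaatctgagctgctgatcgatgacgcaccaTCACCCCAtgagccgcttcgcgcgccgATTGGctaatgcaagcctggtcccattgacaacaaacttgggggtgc
Msmo1: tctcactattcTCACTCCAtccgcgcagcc
Mvd: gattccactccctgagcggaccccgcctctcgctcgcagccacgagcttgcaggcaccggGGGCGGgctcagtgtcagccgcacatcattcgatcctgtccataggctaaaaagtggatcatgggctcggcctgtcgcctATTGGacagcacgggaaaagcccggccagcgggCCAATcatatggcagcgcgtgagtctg
Dhcr7: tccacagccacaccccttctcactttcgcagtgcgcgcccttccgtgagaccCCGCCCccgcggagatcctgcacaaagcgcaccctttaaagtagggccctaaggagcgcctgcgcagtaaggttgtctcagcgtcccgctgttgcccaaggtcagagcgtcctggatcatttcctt
Fasn: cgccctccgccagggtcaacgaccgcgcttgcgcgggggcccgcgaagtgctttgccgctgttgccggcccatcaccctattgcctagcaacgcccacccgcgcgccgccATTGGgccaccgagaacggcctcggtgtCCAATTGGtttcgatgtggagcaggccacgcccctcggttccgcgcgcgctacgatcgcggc
The core began 137 bases before the start site in Hmgcs1, 162 in Srebf2 and 177 in Msmo1. In Fasn 2 of the 3 CCAAT matches overlap on opposite strands. A match is a run of letters in the window, not a measured binding site.

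**Figure D2:**
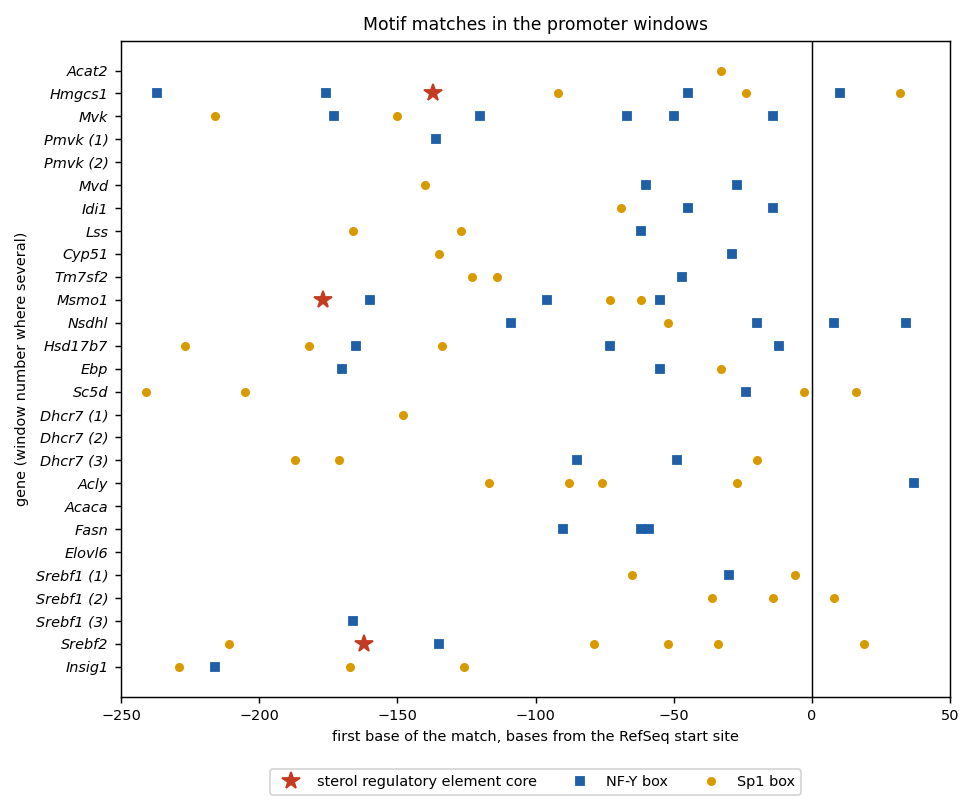
Position of motif matches in the 27 promoter windows of 22 genes, in bases from the RefSeq start site (0, black line). Stars are the sterol regulatory element core, squares the NF-Y box and circles the Sp1 box. The core is seen in 3 windows, between 137 and 177 bases before the start site.

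In control cultures at 3.5 h the 28 genes spanned 2 orders of size in TPM. Insig1, which encodes the sterol-dependent anchor of SCAP, was highest at 125 ± 15.2 TPM (SD, n = 5). Next came Srebf2 at 69.8 ± 10.5, Msmo1, a demethylase of the lanosterol branch, at 67.3 ± 8.98, and Ebp, a sterol isomerase, at 64.8 ± 4.92 TPM, which lay within their spread of one another. Acly, Cyp51 and Hmgcs1 followed at 57.3 ± 15.4, 57.3 ± 6.24 and 55.4 ± 3.36 TPM, again not apart from each other. At the low end stood Acaca with 2.15 ± 0.781 TPM, Elovl6 with 1.13 ± 0.292, Scd1 with 1.004 ± 0.446 and Fdps with 0.978 ± 0.208, and the last 3 overlapped. Part of several levels is uncertain, because 28.9% of the 100-base windows in the transcripts of Acat2 also occur in other genes (mainly Acat3), 23.7% of those of Acaca, 21.9% of Idi1, 21.4% of Fdps and 18.3% of Fdft1. How the authors treated reads that map to several places is not given in the sources used here.

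At 3.5 h LPS lowered genes in every role group of the pathway, and VWF lowered a smaller number. With VWF, 2 of the 21 genes tested were called lower and 0 higher. Over all genes tested, 5.59% were called lower and 9.10% higher. The called genes were Scd2, a stearoyl-CoA desaturase, and Dhcr7, the enzyme of the last step to cholesterol. With the count filter the same 2 of 28 genes were called lower, against 6.29% of all genes, so the count with VWF is near the background. By adjusted p alone 8 of 21 genes were lower and 3 higher with VWF, against 21.3% and 22.3% of all genes. In the count filter fit it was 10 of 28 lower and 3 higher, against 2585 and 2674 of 14153 over all genes.

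With LPS, 8 of the 21 genes tested were called lower and 0 higher, while 11.8% of all genes were called lower and 12.8% higher. By role these were 2 of 6 tested in the mevalonate steps (Mvd and Idi1), 1 of 2 in squalene and lanosterol formation (Sqle), 2 of 6 from lanosterol to cholesterol (Msmo1 and Dhcr7), 2 of 3 in fatty acid synthesis (Fasn and Scd2) and 1 of 4 regulators and carriers (Stard4). Among the 28 genes of the count filter fit, 10 were called lower against 14.7% of all genes, with Fdps, Lss and Hsd17b7 added and Idi1 at a log2 fold change of -0.96. By adjusted p alone 13 of 21 were lower with LPS and 0 higher, against 33.9% of all genes called lower. In the count filter fit it was 15 of 28 lower and 2 higher, against 4399 and 3870 of 14265 over all genes. After the 10 TPM filter the median log2 fold change of the genes tested was -0.081 with VWF and -0.53 with LPS, beside -0.009 and -0.017 over all genes. VWF and LPS at 3.5 h were each set against the same control cultures.

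At 16 h the genes called with VWF were higher than control and those called with LPS were lower, each in small number. With VWF, 1 of 21 genes, Scd2, was called, and it was higher, while 4.55% of all genes were called higher and 4.15% lower. In the count filter fit Scd2 was again the only one of 28 genes called, against 4.26% of all genes called higher. By adjusted p alone 5 of 21 genes were higher with VWF and 0 lower (Scd2, Mvd, Mvk, Sqle and Acat2), against 13.1% of all genes higher. In the count filter fit it was 8 of 28 higher and 0 lower, against 1562 of 14376 over all genes higher. Of the 4 regulators and carriers, 2 were among these 8. Without the 3 cultures that stood apart, Mvd was called as well, and by adjusted p alone 14 of 21 genes were higher, against 25.2% of all genes. With LPS, 3 of 19 genes were called lower and 0 higher (Sqle, Dhcr7 and Stard4), while 12.4% of all genes were called lower and 15.3% higher. These shares are near the background in both comparisons. After the count filter 7 of 28 were called lower with LPS, with Fdps, Tm7sf2, Fasn and Elovl6 added, against 13.6% of all genes. By adjusted p alone 9 of 19 were lower with LPS and 0 higher, against 26.4% of all genes lower. The median log2 fold change was 0.16 with VWF and -0.40 with LPS, beside -0.030 and -0.029 over all genes. These 2 comparisons also share their controls, which include control replicate 5. Without the 3 cultures the same 3 genes were called with LPS, and by adjusted p alone 14 of 19 were lower and 1 higher. Over all genes 2958 of 7861 were then lower by adjusted p and 2952 higher.

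**Figure D3:**
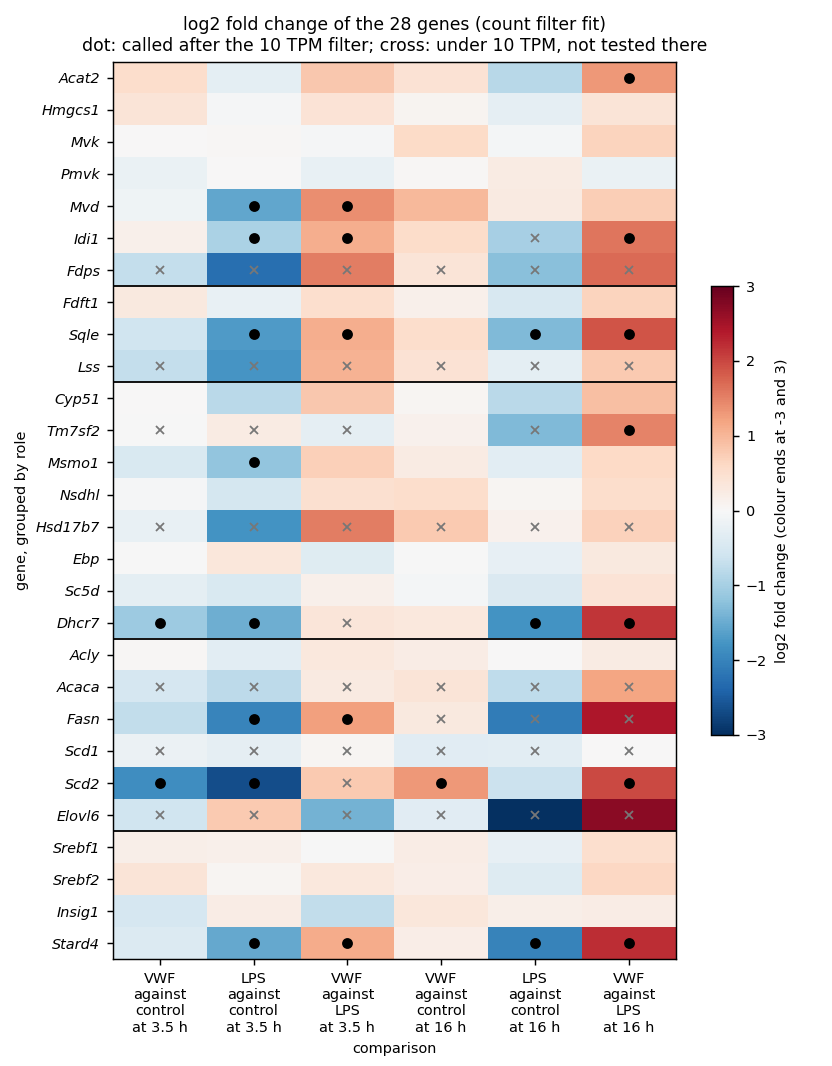
Log2 fold change of each of the 28 genes (rows, grouped by role from mevalonate steps at the top to regulators at the bottom) in the 6 treatment comparisons (columns), from the fit after the count filter. Black dots mark genes called after the 10 TPM filter and crosses genes that did not reach 10 TPM there. With LPS at 3.5 h the 8 dots sit on blue (lower), and with VWF at 16 h the single dot, Scd2, sits on red (higher).

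The mevalonate steps turn acetyl-CoA into isoprenoid units. Acat2 encodes the thiolase that joins acetyl-CoA units. Its CPM was 9.44, 9.26, 10.3, 8.11 and 9.25 in control, 11.5, 13.3, 14.6, 11.2 and 13.1 in VWF-treated and 6.52, 6.83, 8.70 and 6.38 in LPS-treated cultures at 3.5 h. At 16 h it was 9.74, 10.8, 11.6, 10.03 and 14.7 in control, 15.8, 14.9, 15.5, 12.8 and 15.01 with VWF and 5.63, 6.18, 5.34 and 6.50 with LPS. The VWF cultures lay above every control at 3.5 h and overlapped the controls at 16 h, where the LPS cultures lay below all others. With VWF Acat2 rose at 3.5 h (log2 fold change 0.47 ± 0.10 (SE), adjusted p = 0.00293), and at 16 h its value was 0.37 ± 0.12 (SE), adjusted p = 0.046. With LPS it was lower at both times by adjusted p (-0.38 ± 0.14 (SE), adjusted p = 0.0301 at 3.5 h and -0.92 ± 0.16 (SE), adjusted p = 0.00087 at 16 h). In the count filter fit 3 of the 7 mevalonate genes were lower with LPS at 3.5 h by adjusted p. Mvd and Fdps were among them, so Acat2 and Idi1 did not both pass there.

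Mvd encodes mevalonate diphosphate decarboxylase. At 3.5 h it read 25.05, 26.9, 30.4, 21.04 and 26.4 CPM in control, 19.3, 23.02, 27.8, 21.2 and 21.5 in VWF-treated and 8.63, 8.21, 9.38 and 7.37 in LPS-treated cultures. The LPS cultures sat far below both other groups, which overlapped. LPS lowered Mvd to 32.3% of the control mean (log2 fold change -1.62 ± 0.13 (SE), adjusted p = 6.91e-07), and VWF gave -0.19 ± 0.12 (SE), adjusted p = 0.221. At 16 h the values were 19.6, 16.4, 19.5, 18.9 and 33.6 in control, 40.8, 40.1, 39.96, 44.3 and 40.7 with VWF and 19.6, 23.9, 21.4 and 32.3 with LPS. Every VWF culture lay above every control, and the LPS range overlapped the control range. Mvd was higher with VWF at 16 h (log2 fold change 0.92 ± 0.17 (SE), adjusted p = 0.00187), and without the 3 cultures that stood apart the change was 1.12 ± 0.067 (SE), adjusted p = 7.62e-07. With LPS at 16 h the value was 0.20 ± 0.24 (SE), adjusted p = 0.517, and without the 3 cultures 0.24 ± 0.10 (SE), adjusted p = 0.0469.

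Idi1 encodes the isomerase that balances the 2 isoprenoid units. It read 9.13, 13.2, 16.3, 13.5 and 14.6 CPM in control, 12.97, 13.97, 15.1, 12.1 and 16.9 with VWF and 3.86, 8.84, 8.02 and 5.29 with LPS at 3.5 h. LPS cultures were below the lowest control and VWF cultures overlapped the controls. With LPS Idi1 fell at 3.5 h (log2 fold change -1.03 ± 0.25 (SE), adjusted p = 0.00383), a value that dropped inside 2-fold when control replicate 3 or 5 or LPS replicate 1 or 4 was left out. The 16 h values of Idi1 were 7.12, 8.97, 8.71, 7.15 and 2.38 in control, 10.4, 11.5, 11.7, 4.25 and 11.1 with VWF and 4.67, 3.51, 3.42 and 1.22 with LPS, and the lowest value of each group belonged to the culture that stood apart. VWF against control gave 0.49 ± 0.37 (SE), adjusted p = 0.392 and, without those 3 cultures, 0.49 ± 0.10 (SE), adjusted p = 0.00307. With LPS at 16 h Idi1 did not reach 10 TPM, and the count filter fit gave -0.995 ± 0.44 (SE), adjusted p = 0.0889.

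Of the other mevalonate genes, Hmgcs1, the synthase that makes HMG-CoA, rose slightly with VWF at 3.5 h (log2 fold change 0.34 ± 0.11 (SE), adjusted p = 0.0249), with 87.7 to 118 CPM against 63.8 to 90.8 in control, and read -0.10 with LPS (adjusted p = 0.475). At 16 h its changes were 0.028 with VWF and -0.34 with LPS, neither past the test. Both passed when the 3 cultures that stood apart were left out, at 0.24 (adjusted p = 0.0483) and -0.27 (adjusted p = 0.0164). Mvk, mevalonate kinase, rose with VWF at 16 h (log2 fold change 0.52 ± 0.11 (SE), adjusted p = 0.00485), from 22.3 ± 3.03 to 32.1 ± 4.06 CPM (SD), and gave -0.037 and -0.025 at 3.5 h, where it did not pass. With LPS at 16 h Mvk gave -0.13 (adjusted p = 0.549) and, without the 3 cultures, -0.22 (adjusted p = 0.0277). Pmvk, the next kinase, passed in none of the 4 comparisons with control, with log2 fold changes of -0.26 and -0.059 at 3.5 h and -0.024 and 0.18 at 16 h. Fdps, farnesyl diphosphate synthase, was counted at only 1.03 to 1.60 CPM in control cultures at 3.5 h, 0.449 to 0.888 with VWF and 0.157 to 0.436 with LPS. Both treated groups lay below every control. The change of Fdps with LPS at that time was -2.25 ± 0.35 (SE), adjusted p = 0.000141 (count filter fit, log2 fold change). These values rest on few reads, some of them in sequence shared with Gm43738.

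Squalene and lanosterol formation begins the committed sterol branch. Sqle encodes squalene epoxidase, a rate-limiting step of that branch. At 3.5 h it read 48.97, 60.1, 70.9, 54.6 and 67.1 CPM in control, 36.8, 38.7, 41.4, 32.6 and 42.1 with VWF and 17.8, 18.8, 18.3 and 16.04 with LPS. The 3 groups did not overlap, with VWF between control and LPS. VWF lowered Sqle (log2 fold change -0.64 ± 0.11 (SE), adjusted p = 0.000649), and with LPS the change was -1.76 ± 0.12 (SE), adjusted p = 2.21e-07. Sqle stood at 16 h at 31.3, 33.2, 30.9, 29.2 and 24.1 in control, 46.3, 45.9, 41.8, 28.4 and 43.5 with VWF and 11.4, 12.4, 11.3 and 9.07 with LPS. LPS cultures remained far below control, and 4 of 5 VWF cultures lay above every control. The change with LPS was -1.41 ± 0.13 (SE), adjusted p = 1.3e-05. With VWF it was 0.46 ± 0.15 (SE), adjusted p = 0.0429, and 0.51 ± 0.058 (SE), adjusted p = 5.45e-05 without the 3 cultures that stood apart. Lss, lanosterol synthase, was under 10 TPM. Its count filter fit gave -0.72 with VWF (adjusted p = 0.0027) and -1.78 with LPS (adjusted p = 8.59e-07) at 3.5 h, with 10.3 to 15.1 CPM in control, 5.96 to 9.89 with VWF and 3.09 to 4.09 with LPS. Fdft1, squalene synthase, which acts just before Sqle, passed in none of the 4 comparisons with control, with log2 fold changes of 0.24 and -0.29 at 3.5 h. Without the 3 cultures its values at 16 h were 0.41 with VWF (adjusted p = 0.000893) and -0.52 with LPS (adjusted p = 0.000945).

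The steps from lanosterol to cholesterol remove methyl groups and shift or reduce double bonds. Dhcr7 encodes 7-dehydrocholesterol reductase, which makes cholesterol from its last precursor. At 3.5 h its CPM was 14.2, 15.3, 17.01, 17.4 and 19.6 in control, 9.02, 8.03, 5.79, 5.997 and 8.63 with VWF and 5.05, 7.51, 5.90 and 4.26 with LPS. Both treated groups lay below every control and overlapped each other. VWF brought Dhcr7 to 44.9% of the control mean (log2 fold change -1.14 ± 0.15 (SE), adjusted p = 8.7e-05) and LPS to 34.03% (log2 fold change -1.54 ± 0.17 (SE), adjusted p = 1.32e-05). At 16 h the values were 19.8, 20.3, 23.6, 19.8 and 10.5 in control, 21.5, 22.8, 28.3, 18.1 and 23.2 with VWF and 5.50, 4.92, 7.02 and 2.77 with LPS. VWF cultures overlapped the controls and LPS cultures stayed below them. The 16 h changes were 0.26 ± 0.21 (SE), adjusted p = 0.425 with VWF and -1.87 ± 0.31 (SE), adjusted p = 0.00064 with LPS.

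Msmo1, methylsterol monooxygenase, removes methyl groups from the sterol ring. Its CPM at 3.5 h was 113, 143, 159, 96.1 and 132 in control, 75.1, 101, 107, 82.7 and 83.3 with VWF and 58.7, 50.3, 58.5 and 46.9 with LPS. The LPS cultures lay below all others, and the VWF range overlapped the control range. Msmo1 fell with LPS (log2 fold change -1.26 ± 0.15 (SE), adjusted p = 2.22e-05) and, inside 2-fold, with VWF (-0.51 ± 0.14 (SE), adjusted p = 0.0129). The 16 h values of Msmo1 were 77.5, 74.8, 78.4, 66.9 and 118 in control, 101, 104, 86.8, 92.5 and 91.6 with VWF and 53.96, 63.4, 52.3 and 77.1 with LPS. The highest control was replicate 5, and the changes were 0.19 with VWF and -0.40 with LPS, neither past the test. Without the 3 cultures Msmo1 read 0.37 ± 0.071 (SE), adjusted p = 0.00184 with VWF and -0.37 ± 0.087 (SE), adjusted p = 0.00334 with LPS.

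Tm7sf2 encodes a sterol reductase. Its CPM at 3.5 h was 9.20, 9.18, 7.26, 5.63 and 6.92 in control, 6.65, 9.11, 8.03, 6.78 and 5.70 with VWF and 9.30, 8.38, 7.37 and 9.11 with LPS, and the 3 groups overlapped. Later, at 16 h, it was 14.2, 12.8, 12.8, 12.4 and 15.01 in control, 12.9, 15.6, 11.3, 15.8 and 15.5 with VWF and 4.61, 6.06, 4.59 and 4.78 with LPS, where LPS cultures lay below all others. The count filter fit gave a change of -1.32 ± 0.14 (SE), adjusted p = 4.01e-05 with LPS at 16 h, against 0.24 at 3.5 h, and 0.13 with VWF at 16 h. Some of its reads are uncertain, since 12.1% of its exon bases overlap those of Vps51.

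The remaining genes of these steps ranged more widely. Cyp51, lanosterol demethylase, was lower with LPS at both times (log2 fold change -0.87, adjusted p = 0.000218, and -0.90, adjusted p = 0.000959) and did not pass with VWF (-0.038 at 3.5 h and 0.0013 at 16 h). Without the 3 cultures, among them a control at 67.3 CPM, Cyp51 was higher with VWF at 16 h (0.21, adjusted p = 0.0191). Sc5d, which makes the precursor that Dhcr7 reduces, was lower with both agents at 3.5 h by adjusted p (-0.35 with VWF, adjusted p = 0.0206, and -0.53 with LPS, adjusted p = 0.000855) and with LPS at 16 h (-0.51, adjusted p = 0.0047). In the count filter fit the VWF value was -0.29 (adjusted p = 0.0767). Hsd17b7, a ketosteroid reductase, was under 10 TPM, and in the count filter fit it was lower with LPS at 3.5 h (2.61 to 3.66 against 9.28 to 13.2 CPM, log2 fold change -1.79 ± 0.15 (SE), adjusted p = 9.22e-07) and higher with VWF at 16 h (6.64 to 11.4 against 4.24 to 7.22 CPM, 0.78 ± 0.20 (SE), adjusted p = 0.0146). Nsdhl, which removes carboxyl groups from the sterol ring, was lower with LPS at 3.5 h (-0.60, adjusted p = 0.0191), and its values at 16 h (0.47 with VWF and -0.024 with LPS) did not pass. The VWF value was 0.40 (adjusted p = 0.0129) without the 3 cultures. Ebp passed in none of the 4 comparisons with control over all cultures after the 10 TPM filter, and without the 3 cultures it was lower with LPS at 16 h (-0.38, adjusted p = 0.00457). With LPS at 3.5 h its sign depended on the scaling, at 0.27 with TMM factors and -0.26 by library size alone. In the count filter fit 1 of the 8 genes of these steps was higher with LPS at that time by adjusted p, and 6 were lower.

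The 2 largest changes against control among the 28 genes, in the count filter fit, were both in fatty acid synthesis, Elovl6 with LPS at 16 h (-3.02) and Scd2 with LPS at 3.5 h (-2.66). Scd2 encodes a stearoyl-CoA desaturase, which puts the double bond into stearate. At 3.5 h its CPM was 24.3, 21.9, 27.99, 31.1 and 34.2 in control, 10.1, 5.61, 6.73, 5.68 and 8.54 with VWF and 5.23, 4.39, 4.18 and 2.89 with LPS. Both treated groups lay below every control, and LPS cultures below every VWF culture. VWF brought Scd2 to 26.2% of the control mean (log2 fold change -1.91 ± 0.19 (SE), adjusted p = 7.67e-06) and LPS to 14.9% (log2 fold change -2.73 ± 0.19 (SE), adjusted p = 2.5e-07). At 16 h the values were 27.95, 28.5, 28.1, 30.2 and 26.1 in control, 70.7, 59.3, 80.4, 49.4 and 74.8 with VWF and 18.6, 16.7, 19.1 and 12.8 with LPS. The order was now VWF above control above LPS, with no overlap between groups. VWF raised Scd2 at 16 h (log2 fold change 1.24 ± 0.13 (SE), adjusted p = 5.75e-05), and LPS gave -0.72 ± 0.13 (SE), adjusted p = 0.000924. Leaving out the 3 cultures gave 1.32 and -0.64.

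Fasn encodes fatty acid synthase. At 3.5 h its CPM was 37.9, 36.6, 34.8, 62.9 and 51.97 in control, 37.02, 20.8, 16.5, 17.6 and 36.8 with VWF and 9.81, 14.2, 9.82 and 8.95 with LPS. VWF cultures were spread over and below the control range, whose highest values came from replicates 4 and 5, and LPS cultures lay below all others. Fasn has a long transcript of 10050 bases, and the high cultures at 3.5 h were those whose deviations rose with transcript length. The Spearman correlation with length was 0.598 and 0.354 in control replicates 4 and 5 and 0.444 and 0.602 in VWF replicates 1 and 5, against -0.424 to -0.220 in the other control and VWF cultures of 3.5 h. Other genes also read highest in these cultures of the 2 groups, among them Acly, Acaca, Lss, Hsd17b7, Dhcr7 and Scd2. Acly, for example, stood at 114 and 108 CPM in these controls and 98.0 and 119 in these VWF cultures. The other control and VWF cultures of 3.5 h held 74.9 to 82.8 CPM of Acly. The part of this in the results of Fasn and these other genes was not tested. Fasn fell with LPS (log2 fold change -2.05 ± 0.21 (SE), adjusted p = 6.65e-06) and was lower with VWF by adjusted p (-0.78 ± 0.27 (SE), adjusted p = 0.038). The 16 h values of Fasn were 21.1, 24.7, 18.2, 19.8 and 14.9 in control, 25.2, 24.2, 28.4, 15.3 and 24.02 with VWF and 6.57, 3.38, 5.03 and 2.24 with LPS, and LPS cultures were again below every other culture. No culture of 16 h reached 10 TPM, and the count filter fit gave -2.10 ± 0.29 (SE), adjusted p = 0.00023 with LPS and 0.29 ± 0.17 (SE), adjusted p = 0.284 with VWF.

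Acaca, the acetyl-CoA carboxylase that feeds Fasn, was under 10 TPM and in the count filter fit was lower with LPS at both times (-0.78, adjusted p = 0.00267, and -0.77, adjusted p = 0.028). With VWF at 3.5 h Acaca read 5.56 to 9.89 CPM against 8.33 to 15.9 in control, and these groups overlapped. Acly, ATP citrate lyase, which supplies the acetyl-CoA, was lower with LPS at 3.5 h by adjusted p (-0.39, adjusted p = 0.0384) and passed in no other comparison with control. In the count filter fit that value was -0.31 (adjusted p = 0.0776). Elovl6, which lengthens palmitate, had 4.45, 5.37, 5.77, 5.08 and 5.86 CPM in control, 4.26, 4.504, 3.83, 4.11 and 3.54 with VWF and 0.648, 0.444, 0.529 and 0.813 with LPS at 16 h, so LPS cultures held 11.5% of the control mean without overlap (count filter fit, log2 fold change -3.02 ± 0.23 (SE), adjusted p = 3.71e-06). At 3.5 h it ran the other way with LPS, at 2.79 to 4.47 against 1.56 to 2.94 CPM (0.80 ± 0.22 (SE), adjusted p = 0.00735). With VWF at 3.5 h Elovl6 stood at 1.17 to 1.70 CPM, which overlapped the controls. In the count filter fit 3 of the 6 genes of fatty acid synthesis were lower with VWF at that time by adjusted p. Scd1, the desaturase that dominates in liver, stayed at 0.915 to 2.31 CPM in control cultures at 3.5 h and passed in none of the 4 comparisons with control.

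Of the 4 regulators and sterol carriers, Stard4, a cytosolic sterol transfer protein, changed most. At 3.5 h its CPM was 30.2, 35.7, 31.3, 30.05 and 29.6 in control, 22.1, 23.4, 22.8, 18.5 and 25.4 with VWF and 10.8, 10.8, 10.8 and 8.29 with LPS. The 3 groups did not overlap and stood in the order control, VWF, LPS. LPS lowered it to 32.4% of the control mean (log2 fold change -1.62 ± 0.11 (SE), adjusted p = 2.36e-07), and VWF gave -0.47 ± 0.10 (SE), adjusted p = 0.00191. At 16 h the values were 22.7, 24.4, 27.2, 20.7 and 26.2 in control, 27.6, 28.1, 27.01, 21.2 and 29.95 with VWF and 5.37, 6.06, 4.74 and 6.38 with LPS. VWF cultures overlapped the controls, and the 4 LPS cultures lay far below them (LPS log2 fold change -2.08 ± 0.14 (SE), adjusted p = 1.48e-06, VWF 0.13 ± 0.11 (SE), adjusted p = 0.446). The VWF change was 0.25 ± 0.081 (SE), adjusted p = 0.0262 without the 3 cultures.

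Srebf2, whose product drives mainly the cholesterol genes, read 138, 162, 141, 167 and 161 CPM in control, 189, 194, 186, 175 and 218 with VWF and 129, 167, 159.5 and 146 with LPS at 3.5 h. VWF cultures lay above every control and LPS cultures overlapped the controls. It rose with VWF (log2 fold change 0.34 ± 0.083 (SE), adjusted p = 0.00622) while its change with LPS was -0.023 ± 0.10 (SE), adjusted p = 0.844. Srebf2 at 16 h stood at 98.9, 111, 104, 94.9 and 70.00 in control, 108, 111, 115, 84.04 and 113 with VWF and 73.9, 70.7, 76.5 and 51.6 with LPS. The changes were 0.14 ± 0.14 (SE), adjusted p = 0.551 with VWF and -0.47 ± 0.16 (SE), adjusted p = 0.034 with LPS. The lowest value of each 16 h group belonged to the culture that stood apart, and without these the LPS change was -0.45 (adjusted p = 0.000381). In the count filter fit 2 of the 4 regulators and carriers were lower with LPS at 16 h by adjusted p. Stard4 was among them, so Srebf1 and Srebf2 did not both pass there.

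Srebf1, whose products drive mainly the fatty acid genes, changed by less than 2-fold throughout. At 3.5 h it read 59.1, 57.95, 60.9, 63.3 and 66.5 CPM in control, 66.3, 69.8, 64.6, 61.4 and 67.00 with VWF and 64.7, 69.4, 62.99 and 62.2 with LPS, and all groups overlapped. Srebf1 at 16 h stood at 62.6, 61.97, 60.9, 61.2 and 60.9 in control, 70.1, 72.3, 70.2, 65.2 and 68.2 with VWF and 48.8, 48.2, 49.7 and 46.2 with LPS, and here the 3 groups were separate. Srebf1 fell with LPS at 16 h (log2 fold change -0.33 ± 0.069 (SE), adjusted p = 0.00284), and VWF gave 0.16 ± 0.060 (SE), adjusted p = 0.0792 and, without the 3 cultures, 0.19 ± 0.046 (SE), adjusted p = 0.00654. In the count filter fit over all cultures, 2 of the 4 regulators and carriers were higher with VWF at 16 h by adjusted p. At 3.5 h the changes of Srebf1 were 0.11 and 0.083, neither past the test, and the sign with LPS turned to -0.45 when scaled by library size alone. Gene counts do not separate the transcript forms of Srebf1, nor do they show SREBP cleavage.

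Insig1 read 104, 144, 119.5, 117 and 113 CPM in control, 68.6, 83.3, 91.9, 73.8 and 85.6 with VWF and 122, 138, 134 and 135 with LPS at 3.5 h. VWF cultures lay below every control, and LPS cultures lay within the control range. Insig1 fell with VWF (log2 fold change -0.56 ± 0.10 (SE), adjusted p = 0.000996), while the change with LPS was 0.15 ± 0.10 (SE), adjusted p = 0.188 and turned to -0.38 when scaled by library size alone. Insig1 at 16 h stood at 29.1, 33.2, 35.2, 31.7 and 34.4 in control, 43.7, 42.96, 37.2, 32.3 and 45.02 with VWF and 36.7, 34.4, 32.4 and 33.3 with LPS, all under the lowest 3.5 h value. The changes at 16 h were 0.29 ± 0.10 (SE), adjusted p = 0.0673 with VWF and 0.087 ± 0.090 (SE), adjusted p = 0.444 with LPS, and the sign of the last turned to -0.47 when scaled by library size alone. The VWF change was 0.39 ± 0.073 (SE), adjusted p = 0.00147 without the 3 cultures.

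**Figure D4:**
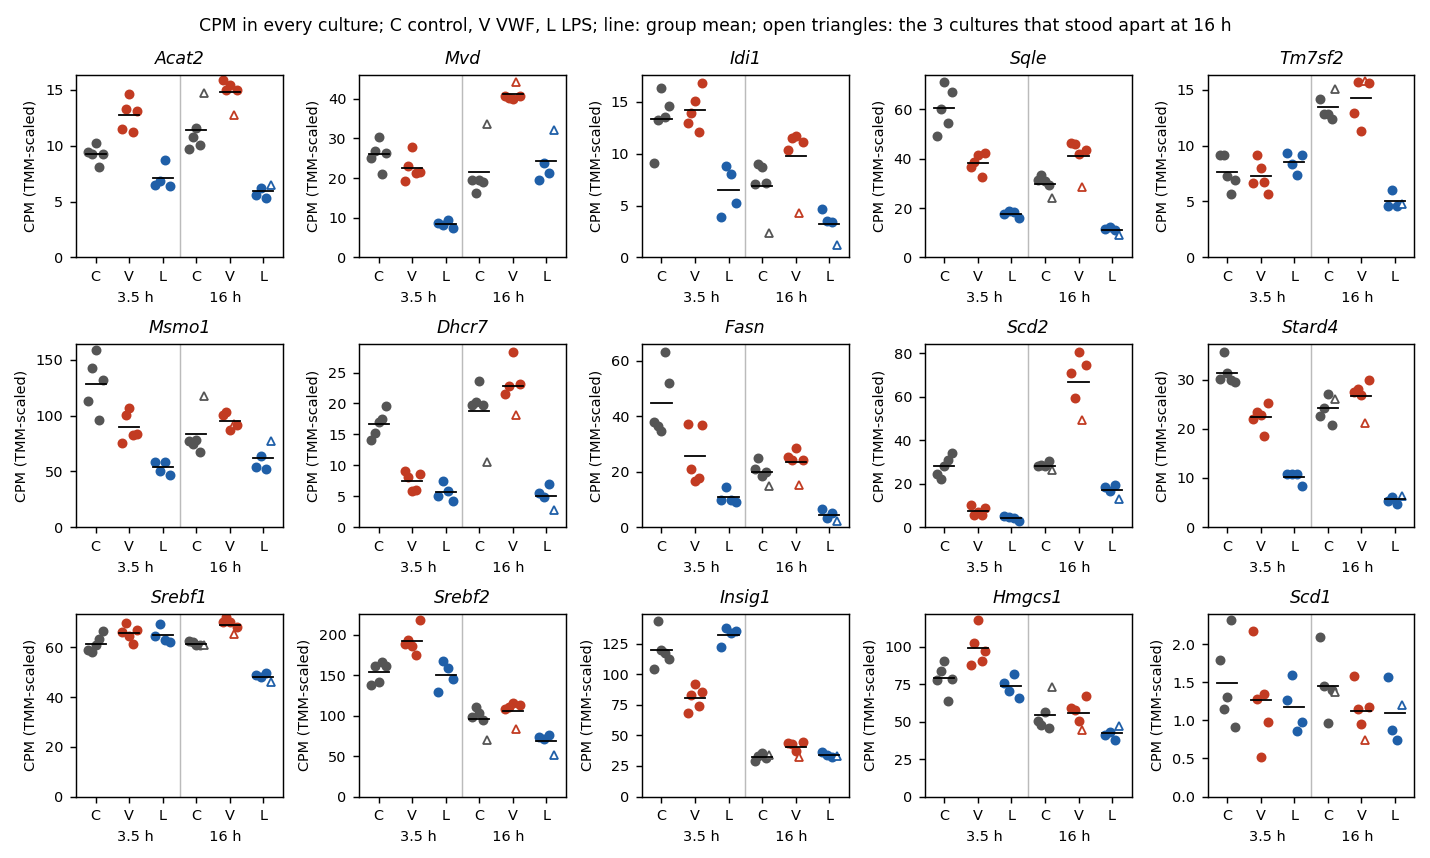
CPM (TMM-scaled, linear axis from 0) in each of the 28 cultures for 15 of the genes, with control in grey, VWF in red and LPS in blue, 3.5 h left and 16 h right of the line in each panel. Each point is 1 culture, the black line the group mean, and open triangles the 3 cultures that stood apart. Scd2 and Dhcr7 are low in both treated groups at 3.5 h, and at 16 h only the LPS cultures of Dhcr7 stay low while Scd2 with VWF lies at 49.4 to 80.4 CPM.

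Whether the effect of an agent differed between the times was tested by its interaction with time, which sets the 16 h change against the 3.5 h change. With VWF the 16 h change was the higher one for 5 of 22 genes called and the lower one for 0, against 5.69% and 7.77% of all genes. These were Scd2 (log2 difference 3.18 ± 0.24 (SE), adjusted p = 3.96e-09), Dhcr7 (1.44 ± 0.26 (SE), adjusted p = 0.000216), Mvd (1.14 ± 0.22 (SE), adjusted p = 0.000326), Sqle (1.13 ± 0.18 (SE), adjusted p = 6.57e-05) and Fasn (1.05 ± 0.35 (SE), adjusted p = 0.024). Of these, Scd2, Dhcr7, Sqle and Fasn had been lower than control at 3.5 h by adjusted p. The same 5 were called without the 3 cultures that stood apart. Fasn fell inside 2-fold when any 1 of 7 cultures was left out and lost its adjusted p without control replicate 4 of 3.5 h or VWF replicate 3 of 16 h. With LPS, 2 of 21 genes were called higher and 0 lower, against 13.5% and 12.8% of all genes. These were Scd2 (2.03 ± 0.23 (SE), adjusted p = 1.91e-06) and Mvd (1.83 ± 0.27 (SE), adjusted p = 3.27e-05), which LPS had lowered at 3.5 h. By adjusted p alone 3 of 21 genes were higher and 4 lower, against 2185 and 2082 of 8748 over all genes. For Stard4 (-0.45), Sqle (0.37) and Dhcr7 (-0.31), all called lower with LPS at both times, the difference stayed inside 2-fold. When the 3 cultures were left out, Sqle (0.38, adjusted p = 0.0331), Nsdhl (0.65, adjusted p = 0.0429) and Srebf2 (-0.41, adjusted p = 0.0108) passed, all inside 2-fold. In that fit Stard4 (-0.48, adjusted p = 0.0175), Ebp (-0.63, adjusted p = 0.00324), Acat2 (-0.47, adjusted p = 0.0227) and Srebf1 (-0.38, adjusted p = 0.0016) were also lower. Msmo1 was higher there (0.90, adjusted p = 0.000636).

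**Figure D5:**
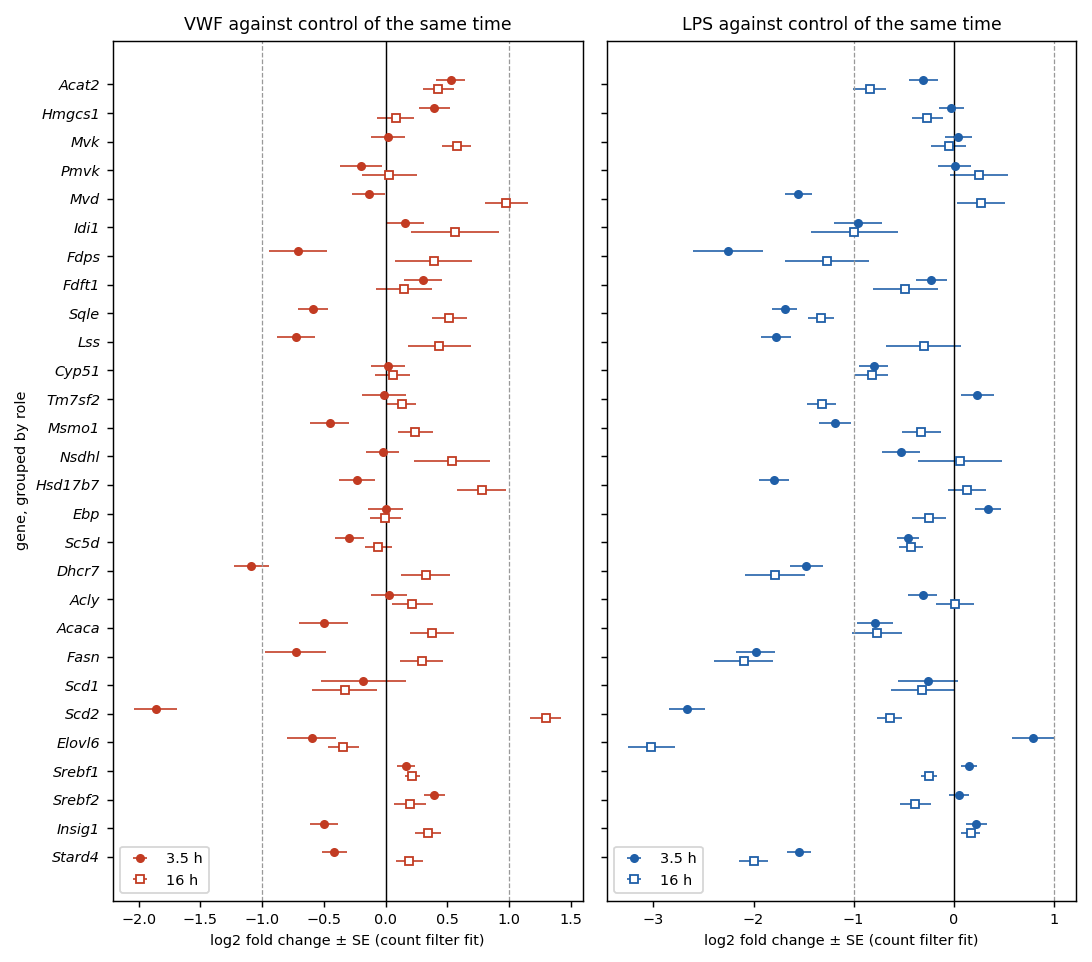
Log2 fold change against the control of the same time (x axis, bars are SE) for each of the 28 genes (y axis, grouped by role) with VWF (left) and LPS (right), from the count filter fit, as filled circles at 3.5 h and open squares at 16 h. Dashed lines mark a change of 2-fold. With VWF, Scd2 lies left of the left dashed line at 3.5 h and right of the right one at 16 h, and with LPS the squares of Stard4, Dhcr7 and Sqle stay left of the dashed line.

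VWF and LPS were also compared directly. At 3.5 h 5 of 19 genes were called higher with VWF than with LPS and 0 lower, against 4.71% and 6.71% of all genes. These were Mvd (log2 fold change 1.45 ± 0.12 (SE), adjusted p = 5.64e-06), Fasn (1.30 ± 0.29 (SE), adjusted p = 0.00382), Stard4 (1.17 ± 0.13 (SE), adjusted p = 2.72e-05), Idi1 (1.16 ± 0.23 (SE), adjusted p = 0.00191) and Sqle (1.14 ± 0.10 (SE), adjusted p = 6.32e-06). After the count filter 8 of 28 were called higher, against 5.74% of all genes, with Fdps, Lss and Hsd17b7 added, and Elovl6 was called lower (-1.41). By adjusted p alone 12 of 19 were higher, against 26.3% of all genes, and Insig1 was lower (-0.69, adjusted p = 0.000133). Neither Scd2 nor Dhcr7 reached 10 TPM in these cultures, and in the count filter fit they read 0.78 ± 0.21 (SE), adjusted p = 0.0119 and 0.37 ± 0.19 (SE), adjusted p = 0.141. For Dhcr7 this does not show that the agents act alike. The VWF dose was by mass of protein and the LPS dose by mass of a glycolipid, so the comparison is between these 2 doses only.

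At 16 h 7 of 21 genes were called higher with VWF than with LPS and 0 lower, against 11.1% and 14.5% of all genes. The values were 2.26 ± 0.14 (SE), adjusted p = 6.13e-07 for Stard4, 2.18 ± 0.26 (SE), adjusted p = 4.98e-05 for Dhcr7, 2.00 ± 0.18 (SE), adjusted p = 8.61e-06 for Scd2 and 1.91 ± 0.17 (SE), adjusted p = 7.14e-06 for Sqle. Idi1 (1.62), Tm7sf2 (1.52) and Acat2 (1.34) were the others. After the count filter 11 of 28 were called higher, against 12.7% of all genes, with Fdps, Acaca, Fasn and Elovl6 added. By adjusted p alone 16 of 21 were higher with VWF, against 29.5% of all genes. Without the 3 cultures that stood apart, Cyp51 joined at 1.03 and none was lost, and 19 of 21 were higher by adjusted p alone. Of all genes tested in that fit, 2787 of 7521 were higher by adjusted p.

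In control cultures alone the pathway also differed between the times. Insig1 was far lower at 16 h than at 3.5 h (log2 fold change -1.87 ± 0.10 (SE), adjusted p = 1.43e-06), and Fasn (-1.18 ± 0.20 (SE), adjusted p = 0.000963) and Sqle (-1.02 ± 0.12 (SE), adjusted p = 0.000133) were lower too. These 3 of 21 genes were called lower and 0 higher, against 5.09% and 4.00% of all genes. Sqle fell inside 2-fold without control replicate 5 of 16 h, or without control replicate 3 or 5 of 3.5 h (-0.95 without the first). Mvk was higher by adjusted p (0.82 ± 0.13 (SE), adjusted p = 0.000925), as were Pmvk (0.72) and Ebp (0.43). Without control replicate 5 of 16 h, which read 40.4 CPM for Pmvk, the Pmvk value was 0.45 (adjusted p = 0.0326) and Ebp gave 0.33. Mvd and Dhcr7 then passed as well, at -0.48 (adjusted p = 0.00362) and 0.33 (adjusted p = 0.021). After the count filter Elovl6 was called higher at 16 h (1.21 ± 0.17 (SE), adjusted p = 0.00043).

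The other genes of the pathway were counted from a list of 19 that covers SREBP processing, further sterol enzymes and further fatty acid enzymes. Its counts stand against the same shares of all genes as above. With VWF at 3.5 h (9.10% of all genes higher, 5.59% lower) 1 of 15 tested was called higher, Scap (log2 fold change 1.24 ± 0.080 (SE), adjusted p = 1.62e-07), and 1 lower, Acsl3, which activates long-chain fatty acids (-1.91 ± 0.13 (SE), adjusted p = 3.76e-07). With LPS at 3.5 h (12.8% higher, 11.8% lower) 1 of 15 was called higher, Mid1ip1, an activator of acetyl-CoA carboxylase (1.03 ± 0.14 (SE), adjusted p = 6.33e-05), and 2 lower, among them Acsl3 (-2.29 ± 0.17 (SE), adjusted p = 4.29e-07). At 16 h 0 of 14 were called with VWF. By adjusted p 1 was higher and 3 lower, against 1019 and 1144 of 7798 over all genes. With LPS 8 of 13 were called lower at 16 h, against 12.4% of all genes. It was 7 of 13 when the 3 cultures were left out, with Mbtps1 lost, against 989 of 7861 over all genes. With VWF 4 were then higher and 5 lower by adjusted p, against 1936 and 1804 of 7682 over all genes. Of the 8, Fads1, a fatty acid desaturase, changed by -2.24 ± 0.092 (SE), adjusted p = 7.19e-08 and Acsl3 by -2.07 ± 0.18 (SE), adjusted p = 7.39e-06. Scap itself was among the 8 (-1.65 ± 0.24 (SE), adjusted p = 0.000273), and its change with LPS at 3.5 h was 0.43, a value that turned to -0.11 when scaled by library size alone. The median log2 fold change of the tested genes on the list was -0.23, -0.41, -0.030 and -1.03 for VWF and LPS at 3.5 h and then at 16 h.

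Ch25h and the LXR list moved beside these genes. Ch25h stood at 9.01 ± 0.995 CPM in control, 365 ± 90.1 with VWF and 195 ± 41.4 with LPS at 3.5 h (SD, n = 5, 5 and 4). It rose with both agents, and was higher with VWF than with LPS (0.93 ± 0.19 (SE), adjusted p = 0.00254). The log2 fold changes of Ch25h against control were 5.35 ± 0.18 (SE), adjusted p = 2.79e-09 with VWF and 4.44 ± 0.16 (SE), adjusted p = 1.51e-09 with LPS. At 16 h it was 6.09 ± 1.34 in control, 3.57 ± 1.93 with VWF and 35.4 ± 5.26 with LPS, still higher than control with LPS (2.56 ± 0.20 (SE), adjusted p = 4.05e-06) and at -0.79 ± 0.43 (SE), adjusted p = 0.229 with VWF. Of the 7 LXR genes, 1 was called higher with VWF at 3.5 h (all genes 9.10%), Abca1, the cholesterol exporter (1.25 ± 0.17 (SE), adjusted p = 0.000109), and 2 at 16 h (all genes 4.55%), Abca1 (1.42 ± 0.11 (SE), adjusted p = 5.48e-06) and Nr1h3, which encodes LXRα (2.56 ± 0.11 (SE), adjusted p = 1.79e-07). With LPS, 2 of 7 were called lower at 3.5 h (all genes 11.8%), Nr1h3 (-1.16 ± 0.10 (SE), adjusted p = 1.34e-06) and Mylip, a ubiquitin ligase of lipoprotein receptors (-1.44 ± 0.17 (SE), adjusted p = 2.46e-05), and 1 higher at 16 h (all genes 15.3%), Nr1h3 (2.46 ± 0.10 (SE), adjusted p = 7.64e-08), joined by Abca1 without the 3 cultures. Whether the changes in Ch25h, the LXR list and the 28 genes are linked was not tested.

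Dividing cells are known to draw on this pathway for new membranes, and proliferation genes also moved with LPS at 16 h. Of 8 such genes, 7 were called lower with LPS at 16 h, against 12.4% of all genes. Their median log2 fold change was -3.08. At 3.5 h 1 of 7 was called lower with LPS, near the 11.8% of all genes, with a median of -0.53. With VWF at 16 h 2 of 8 were called lower against 4.15% of all genes, and the median was -0.51. The list was split there, with 4 of 8 lower and 2 higher by adjusted p alone, against 1144 and 1019 of 7798 over all genes. The part of the proliferation genes in the results was not tested.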

How the data were processed

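RNA-seq was run on 28 BMDM cultures in 6 groups with 150-base reads, and gene counts were deposited in 1 table. The authors aligned and quantified the reads with STAR against the mouse genome GRCm38/mm10, and the deposited values are whole-number read counts per gene, not normalized. The annotation, the strand setting and the treatment of multi-mapping reads are not named in the sources used here. Groups and replicate numbers were taken from the labels. No 2 cultures of a group were alike within sampling noise (lowest chi-square per degree of freedom 15.8 over 52 pairs).

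From the counts, CPM with TMM factors and TPM over GENCODE exon lengths were computed in R 4.3.3 with edgeR 4.0.16. Genes with 10 TPM or more in any culture of a comparison were tested with edgeR's quasi-likelihood F test in a fit of the groups compared, with Benjamini-Hochberg adjustment over all genes tested. A call needed an adjusted p under 0.05 and an absolute log2 fold change over 1. The SE of a log2 fold change was worked back from the test, as its absolute value divided by the square root of the F statistic. The count filter is edgeR's filterByExpr. The script was tested on simulated counts.

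The 28 genes and all lists were chosen with earlier results of these data known. By rule, every culture's value is given for genes called in any of the 6 treatment comparisons and for Srebf1, Srebf2 and Insig1. Elovl6 at 16 h was added to these after its values were seen. Alternatives were DESeq2 1.42.0, other scalings and filters, all groups in 1 fit, the replicate number as a block, no fold threshold and each culture left out. Leaving out 3 cultures together was chosen after seeing the data. Same-numbered cultures deviated together in every pair for VWF against LPS at 16 h only (r = 0.16 to 0.781 over 4 pairs), and elsewhere the lowest correlation lay between -0.666 and -0.153. The labels do not say what a number stands for. Sequences are RefSeq promoter windows of GRCm38.p6.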

Additional observations from a re-analysis of the deposited data

Results flagged for a closer look

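Of 168 sets of CPM values, 1 per gene and group, 17 held a culture far from the others by Dixon's test, which chance flags in about 1 in 20 sets. In 9 of them the culture was control replicate 5 of 16 h. It read high for Mvk (27.5 CPM), Pmvk (40.4), Mvd (33.6), Fdft1 (53.1), Cyp51 (67.3) and Msmo1 (118), and low for Idi1 (2.38), Lss (5.19) and Nsdhl (3.56). In 4 it was VWF replicate 4 of 16 h, high for Mvd (44.3) and low for Idi1 (4.25), Sqle (28.4) and Srebf2 (84.0). The others were Tm7sf2 in LPS replicate 2 of 16 h (6.06), Fasn in LPS replicate 2 of 3.5 h (14.2), Stard4 in control replicate 2 of 3.5 h (35.7) and Stard4 in LPS replicate 4 of 3.5 h (8.29).

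The effect of VWF differed between the times, by edgeR's test of the interaction, for Mvd (log2 difference 1.14, 16 h minus 3.5 h), Sqle (1.13), Dhcr7 (1.44), Fasn (1.05) and Scd2 (3.18). That of LPS differed for Mvd (1.83) and Scd2 (2.03).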

How the results depend on the processing

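Counts of the 28 genes called are given in the order VWF, LPS and VWF against LPS at 3.5 h, the same at 16 h, control between times, and the interaction with time for VWF and then for LPS. They were 2, 8, 5, 1, 3, 7, 3, 5 and 2. DESeq2, median-of-ratios factors and all groups in 1 fit left each within 1.5 times. With no fold threshold they were 11, 13, 13, 5, 9, 16, 13, 9 and 7. With filterByExpr, VWF against LPS gave 9 at 3.5 h and 11 at 16 h, LPS at 16 h gave 7, control between times 6, and the interactions 8 and 6. With no filter these were 9, 11, 6 and 6, and 6 for the interaction of LPS. Scaled by library size alone, VWF against LPS gave 8 and 13, and LPS at 16 h gave 9. Leaving out each culture gave 2 to 2, 7 to 8, 4 to 5, 1 to 2, 3 to 3, 6 to 8, 2 to 4, 4 to 5 and 2 to 3. The 2 for VWF at 16 h (Mvd added) came without control replicate 5, and without the 3 cultures that stood apart.

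Scaled by library size alone, 15 log2 fold changes turned sign. They were Nr1h2 with VWF at 3.5 h (-0.016); Ebp (-0.26), Srebf1 (-0.45), Insig1 (-0.38), Scap (-0.11), Nr1h2 (-0.49), Lpcat3 (-0.24) and Apoe (-0.12) with LPS at 3.5 h; Insig1 (-0.47), Insig2 (-0.54), Abcg1 (-0.089) and Lpcat3 (-0.49) with LPS at 16 h; and Insig2 (0.080), Abcg1 (0.014) and Apoe (0.44) for VWF against LPS at 16 h. This scaling leaves out the TMM factors, which were lowest with LPS. With the replicate block the counts were 2, 8, 5, 1, 3, 7, 3, 5 and 2, and 2 gene results fell inside 2-fold, Mid1ip1 with LPS at 3.5 h (0.98) and Pcyt2 with LPS at 16 h (-0.91). The other results kept their call under the block.

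Precision is limited by 4 or 5 cultures a group and, for Fdps, Scd1 and Elovl6, by low counts. The depth of 41131209 to 77699206 counts per culture does not measure the spread between cultures.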
